A study of Mus musculus with 11 samples.

Results

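The genes of Wnt signalling were followed through the epithelial populations of the mouse mammary gland. The set held 52 of the 27179 genes in the count tables and was listed by gene name: 15 Wnt ligands, 2 genes needed for ligand secretion, 12 receptors, 4 genes for R-spondins and their receptors, 8 secreted inhibitors, 2 ubiquitin ligases that remove receptors, 5 intracellular components and 4 TCF/LEF transcription factors. All 52 symbols were matched to an Entrez identifier, and 47 passed the filter on low counts (over 0.5 CPM, reads of a gene scaled by library size, in at least 3 libraries).

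RNA-seq of 11 libraries was available. MaSC/basal cells (CD24+CD29hi, enriched for mammary stem cells and also holding myoepithelial cells), luminal progenitor-enriched cells (LP, CD24+CD29loCD61+) and mature luminal-enriched cells (ML, CD24+CD29loCD61-) had been sorted from the mammary glands of virgin wild type FVB/N females, 8 weeks old by the labels, with 3 independent samples each. A single library came from mammosphere cells, grown for 1 week in non-adherent culture from CD24+CD29hi cells of the same strain. The age given for these cells was also 8 weeks. Another single library came from Comma Dβ, labelled CommaD-βGeo, a line of Balb/c mammary cells from mid-pregnancy. The submitted name of the mammosphere library appears to join 2 culture names, so it may be a pool, which the labels do not say. The sorted populations are enriched fractions, and strain and stage of origin cannot be told apart from culture in the Comma Dβ library. Nor can library batch, since Comma Dβ was in batch 3 by the labels and the MaSC/basal libraries were in batches 1 and 2. The mammosphere library shared batch 1 with MaSC/basal replicate 1 alone.

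Wnt proteins are secreted lipid-modified signals that bind a Frizzled receptor on the receiving cell. In the canonical branch an Lrp co-receptor joins the complex, the destruction complex of Axin and *Apc* is halted, and β-catenin accumulates and acts with TCF/LEF factors on target genes. R-spondins acting through Lgr receptors protect Frizzleds from removal, secreted inhibitors bind the ligand or the receptor, and in the mammary gland the pathway is known for its roles in stem cell maintenance and hormone-driven side branching.

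The libraries held 19958838 to 75795034 assigned reads. Sums of 8 basal marker genes were 16966 to 24276 CPM in the MaSC/basal libraries and 75.0 to 375 CPM in the 6 luminal libraries. These sums matched the labels of MaSC/basal and luminal cells and do not separate LP from ML. ML replicate 3 had the highest basal marker sum of the luminal libraries, with *Krt5* at 141 CPM against 13.2 and 14.6 CPM in the other ML libraries. Summed levels of 8 fibroblast markers ranged from 310 to 1432 CPM in the sorted libraries, reached 2602 CPM in the mammosphere and 4009 CPM in the Comma Dβ library, and defining members such as *Col1a1* were above 0 in every library. Endothelial markers (6 genes) summed to 52.7 to 103 CPM in MaSC/basal and 8.62 to 42.3 CPM in the luminal libraries. Nerve sheath markers (4 genes) summed to 146 to 180 CPM in MaSC/basal, 304 to 531 CPM in LP and 152 to 323 CPM in ML. Immune, adipocyte and skeletal muscle markers each summed to at most 67.8 CPM in any library. The part of such cells in the members' levels was not tested. The 6 luminal markers summed to 1410 to 1698 CPM in MaSC/basal and 13180 to 16733 CPM in the luminal libraries. Luminal progenitor markers (5 genes) summed to 2147 to 2644 CPM in LP and 446 to 1272 CPM in ML. Mature luminal markers (6 genes) summed to 716 to 1762 CPM in LP and 4053 to 6676 CPM in ML. ML replicate 2 had the highest progenitor sum and the lowest mature sum of ML, and LP replicate 3 the highest mature sum of LP. The part of LP cells in ML levels, and the reverse, was not tested. In the mammosphere library the basal markers were at 3576 CPM, under every MaSC/basal library, and the luminal markers at 3322 CPM, above every MaSC/basal library. In Comma Dβ they were at 1541 and 217 CPM, so both sets were low there. In bulk RNA of this kind, fewer cells of a type and less RNA per cell cannot be told apart. The submitted name of MaSC/basal replicate 1 contains the term p53 although its label reads wild type, and member calls lost or gained without 1 sorted library are therefore given beside each gene.

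Compared with LP cells, MaSC/basal cells carried higher RNA of much of the pathway. Of the 47 members tested, 25 (53.2%) were higher in MaSC/basal at an adjusted p under 0.05 (edgeR quasi-likelihood test, Benjamini-Hochberg over all genes tested), against 29.4% of all 15422 genes tested, and 7 (14.9%) were higher in LP, against 28.0% of all genes. The median log2 fold change of the members was 1.26, and that of all genes was -0.01. Leaving out any 1 sorted library gave 23 to 25 members higher in MaSC/basal and 7 to 8 higher in LP. The 7 members higher in LP were *Wnt4*, *Wnt5b*, *Wnt7b*, *Rspo1*, *Sfrp2*, *Apc* and *Tcf7l2*.

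Compared with ML cells, 26 members (55.3%) were higher in MaSC/basal, against 28.9% of all genes, and 10 (21.3%) were higher in ML, against 29.7% of all genes. The median log2 fold change was 0.92 for the members and -0.01 for all genes. Those higher in ML were *Wnt4*, *Wnt5a*, *Wnt5b*, *Wnt7b*, *Fzd4*, *Fzd6*, *Fzd10*, *Rspo1*, *Frzb* and *Apc*. Between LP and ML, 11 members (23.4%) were higher in LP, against 14.3% of all genes, and 13 (27.7%) were higher in ML, against 17.5%, with a median log2 fold change of 0.10 for the members and -0.01 for all genes. All 32, 36 and 24 members called in these comparisons kept their sign within every library batch that held both populations. The calls came from the same libraries, so this agreement was largely fixed in advance and gives no separate support. Without TMM scaling the split of all genes moved from 4529 higher and 4324 lower in MaSC/basal than in LP to 5244 and 3527, and from 2204 higher and 2695 lower in LP than in ML to 1581 and 3798, while the members stood at 26 and 7 and at 11 and 14. The 3 comparisons share libraries, and their counts are not independent of each other. The set was also chosen with earlier results of these data known.

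**Figure D1:**
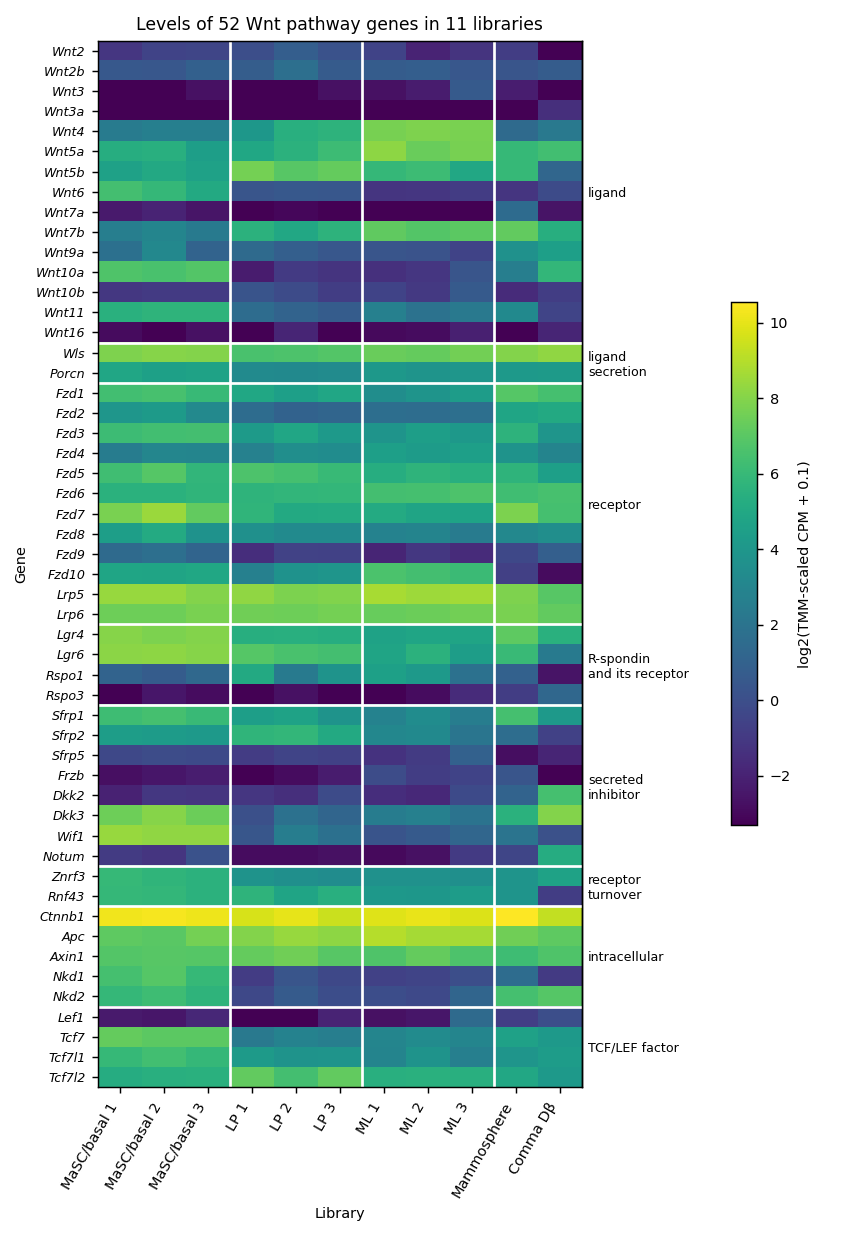
Levels of the 52 genes, in rows grouped by role, in the 11 libraries, in columns; colour gives log2 of TMM-scaled CPM plus 0.1. *Wnt6*, *Wnt10a* and *Wnt11* are bright in the MaSC/basal columns, *Wnt5b* in LP and *Wnt4* in ML, while *Wif1*, *Nkd1* and *Tcf7* are bright in MaSC/basal and dark in the luminal columns.

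The ligands divided between the populations. *Wnt6*, *Wnt10a* and *Wnt11* were higher in MaSC/basal than in both luminal populations, *Wnt5b* was highest in LP, and *Wnt4*, *Wnt5a* and *Wnt7b* were highest in ML. Of the 11 ligands tested, 4 were higher in MaSC/basal and 3 in LP, against 29.4% and 28.0% of all genes. In the second comparison 4 were higher in MaSC/basal and 4 in ML, against 28.9% and 29.7%. In the third, 3 were higher in LP and 4 in ML, against 14.3% and 17.5%. Counts this small, near the shares of all genes in both comparisons with MaSC/basal, are not read as a trait of ligands.

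*Wnt10a* (Entrez 22409), a canonical ligand known from skin appendages and tooth, was at 107, 93.7 and 113 CPM in the MaSC/basal libraries, at 0.106, 0.411 and 0.320 CPM in LP and at 0.283, 0.359 and 1.14 CPM in ML. No luminal library came near the MaSC/basal range. The log2 fold change was 8.44 ± 0.49 (SE) against LP (adjusted p = 6.69e-07, edgeR) and 7.66 ± 0.46 against ML (adjusted p = 6.12e-07), and it rose to 9.03 without LP replicate 2 and to 8.29 without ML replicate 3. These were the largest fold changes of any member in both comparisons.

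Its neighbour *Wnt6* (Entrez 22420), a ligand of embryonic epithelia, was at 83.8, 60.9 and 34.1 CPM in MaSC/basal, at 1.16, 1.29 and 1.28 CPM in LP and at 0.339, 0.359 and 0.455 CPM in ML. The 3 populations did not overlap, and the fold changes were 5.58 ± 0.34 on the log2 scale against LP (adjusted p = 8.49e-07), 7.30 ± 0.38 against ML (adjusted p = 3.14e-07) and 1.73 ± 0.37 for LP against ML (adjusted p = 0.00725, edgeR). The last of these was lost with limma voom (adjusted p = 0.107). In GRCm38.p6 both genes lie on chromosome 1, *Wnt6* from 74754342 to 74785322 and *Wnt10a* from 74792019 to 74804176, with 6696 bases between them. Both were higher in MaSC/basal than in either luminal population, but *Wnt10a* was not called between LP and ML (-0.78, adjusted p = 0.315), where its mean was the lower in LP.

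*Wnt11*, a ligand known mostly for β-catenin-independent signalling in cell movement, was at 44.0, 52.3 and 50.9 CPM in MaSC/basal, at 2.85, 2.02 and 1.55 CPM in LP and at 6.58, 3.65 and 4.83 CPM in ML. Its log2 fold change was 4.51 ± 0.29 against LP (adjusted p = 1.04e-06) and 3.29 against ML, and ML exceeded LP without overlap by 1.21 on the log2 scale (adjusted p = 0.00793, edgeR). Of its exon bases, 10.07% are overlapped by a gene on the other strand, whose reads an unstranded library cannot set apart. *Wnt9a* was at 3.39, 8.66 and 2.07 CPM in MaSC/basal, at 2.71, 1.72 and 1.28 CPM in LP and at 1.16, 1.05 and 0.592 CPM in ML. MaSC/basal and LP overlapped for *Wnt9a*, and the high value of MaSC/basal replicate 2 carried the difference from LP, which was a log2 fold change of 1.29 (adjusted p = 0.0498) with it and 0.52 (adjusted p = 0.290) without it. That call was also lost with the library batch as a block (1.07, adjusted p = 0.137) and without MaSC/basal replicate 1, LP replicate 2 or 3 and ML replicate 1 or 2 (adjusted p from 0.053 to 0.143). The same call was lost with limma voom (adjusted p = 0.110) and, in edgeR, with DESeq2 size factors (0.0505) or the 9 sorted libraries alone (0.0513). The higher *Wnt9a* level against ML (log2 fold change 2.29, adjusted p = 0.00371) was kept without MaSC/basal replicate 2, at 1.54.

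*Wnt5b* (Entrez 22419), a ligand usually placed in the β-catenin-independent branch, was highest in LP cells. It was at 202, 125 and 151 CPM in LP, at 24.2, 32.8 and 24.6 CPM in MaSC/basal and at 59.7, 73.6 and 32.0 CPM in ML. Every LP library lay above every other sorted library, and MaSC/basal lay below ML except that MaSC/basal replicate 2 exceeded ML replicate 3. LP exceeded ML by 1.53 ± 0.29 on the log2 scale (adjusted p = 0.00437, edgeR), and MaSC/basal was 2.55 below LP (adjusted p = 5.64e-05) and 1.02 below ML (adjusted p = 0.0118).

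*Wnt4* (Entrez 22417), the ligand known to act downstream of progesterone in side branching, was at 5.41, 6.13 and 6.25 CPM in MaSC/basal, at 16.0, 42.4 and 49.8 CPM in LP and at 211, 235 and 215 CPM in ML. The 3 populations formed separate steps, and LP replicate 1 was the lowest of the LP libraries. The log2 fold change was -5.22 ± 0.38 for MaSC/basal against ML (adjusted p = 2.05e-06), -2.60 for MaSC/basal against LP (adjusted p = 0.000114) and -2.61 ± 0.34 for LP against ML (adjusted p = 0.000963, edgeR). The mature luminal marker *Pgr*, the progesterone receptor, was at 45.0, 71.2 and 118 CPM in LP replicates 1 to 3, so that it too was lowest in LP replicate 1. The part of ML-like cells in the LP level of *Wnt4* was not tested.

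*Wnt7b* (Entrez 22422), a ligand known from lung and kidney epithelium, was at 6.05, 7.81 and 4.88 CPM in MaSC/basal, at 47.7, 31.8 and 50.6 CPM in LP and at 141, 114 and 131 CPM in ML. Again the populations did not overlap, with log2 fold changes of -2.79 ± 0.23 against LP (adjusted p = 4.58e-06), -4.37 ± 0.24 against ML (adjusted p = 4.12e-07) and -1.57 ± 0.21 for LP against ML (adjusted p = 0.00111, edgeR). *Wnt5a*, the best-known β-catenin-independent ligand, was at 39.1, 42.3 and 21.5 CPM in MaSC/basal, at 31.0, 48.1 and 71.7 CPM in LP and at 290, 169 and 207 CPM in ML. MaSC/basal and LP overlapped for *Wnt5a* and did not differ past the threshold (adjusted p = 0.189), whereas LP was 2.14 ± 0.35 below ML on the log2 scale (adjusted p = 0.00215, edgeR) and MaSC/basal 2.69 below (adjusted p = 0.000107).

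The remaining ligands were low. *Wnt2*, a ligand of stromal cells in several organs, was at 0.356, 0.598 and 0.659 CPM in MaSC/basal, at 0.916, 1.65 and 1.01 CPM in LP and at 0.593, 0.159 and 0.319 CPM in ML. LP exceeded ML by 1.82 ± 0.50 on the log2 scale (adjusted p = 0.0218, edgeR), and the call was lost without LP replicate 2 (adjusted p = 0.084), ML replicate 2 (0.0571) or ML replicate 3 (0.0555). MaSC/basal against LP was not called (-1.17, adjusted p = 0.054) and passed with limma voom (0.0404), without ML replicate 1 (0.0285) or without ML replicate 2 (0.0286). LP replicate 2, the library with most *Wnt2*, also had the highest fibroblast marker sum of the sorted libraries, 1432 CPM; the part of fibroblast RNA in the *Wnt2* level was not tested. *Wnt2b* (1.27 to 3.27 CPM over the sorted libraries) and *Wnt10b* (0.373 to 1.41 CPM) passed no test between populations. *Wnt10b* was called lower in MaSC/basal than in LP without ML replicate 3 (adjusted p = 0.0392) and than in ML without ML replicate 2 (adjusted p = 0.0407). *Wnt3*, *Wnt3a*, *Wnt7a* and *Wnt16* did not pass the filter, and with no filter *Wnt7a* was called higher in MaSC/basal than in LP (adjusted p = 0.0196) and ML (0.00321) and *Wnt3* higher in ML than in MaSC/basal (0.0196). Their counts in the sorted libraries were 0 to 31 reads for *Wnt3*, 0 in every library for *Wnt3a*, 0 to 8 reads for *Wnt7a* and 0 to 9 reads for *Wnt16*, and a count of 0 allows up to 3 reads, which is 0.0398 to 0.160 CPM by library (counting error only). The highest *Wnt3* count, 31 reads, was in ML replicate 3.

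Since reads per gene grow with gene length, ligands were compared with one another as RPKM (TMM-scaled CPM divided by exon length in kilobases). The 15 ligands summed to 124 ± 11.4 RPKM (SD, n = 3) in MaSC/basal, 102 ± 13.4 RPKM in LP and 165 ± 16.1 RPKM in ML, so the totals varied less than their make-up. In MaSC/basal, *Wnt10a* made up 43.2 ± 7.2% of this sum, *Wnt6* 22.7 ± 7.7% and *Wnt11* 14.3 ± 2.3%. In LP, *Wnt5b* alone made up 65.7 ± 9.5%. By mean, *Wnt5a* followed with 11.5 ± 4.6%, and *Wnt4* and *Wnt7b* with 9.6% each, but their order changed between libraries. Second was *Wnt7b* in LP replicate 1, *Wnt4* in LP replicate 2 and *Wnt5a* in LP replicate 3. In ML, *Wnt4* held 35.3 ± 4.5%, *Wnt5a* 30.6 ± 6.1%, *Wnt7b* 17.8 ± 1.8% and *Wnt5b* 14.0 ± 5.3%. *Wnt4* and *Wnt5a* differed in ML by less than the spread of the libraries, and the order of the other leading ligands of ML was *Wnt7b* before *Wnt5b* in libraries 1 and 3 and the reverse in library 2.

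**Figure D2:**
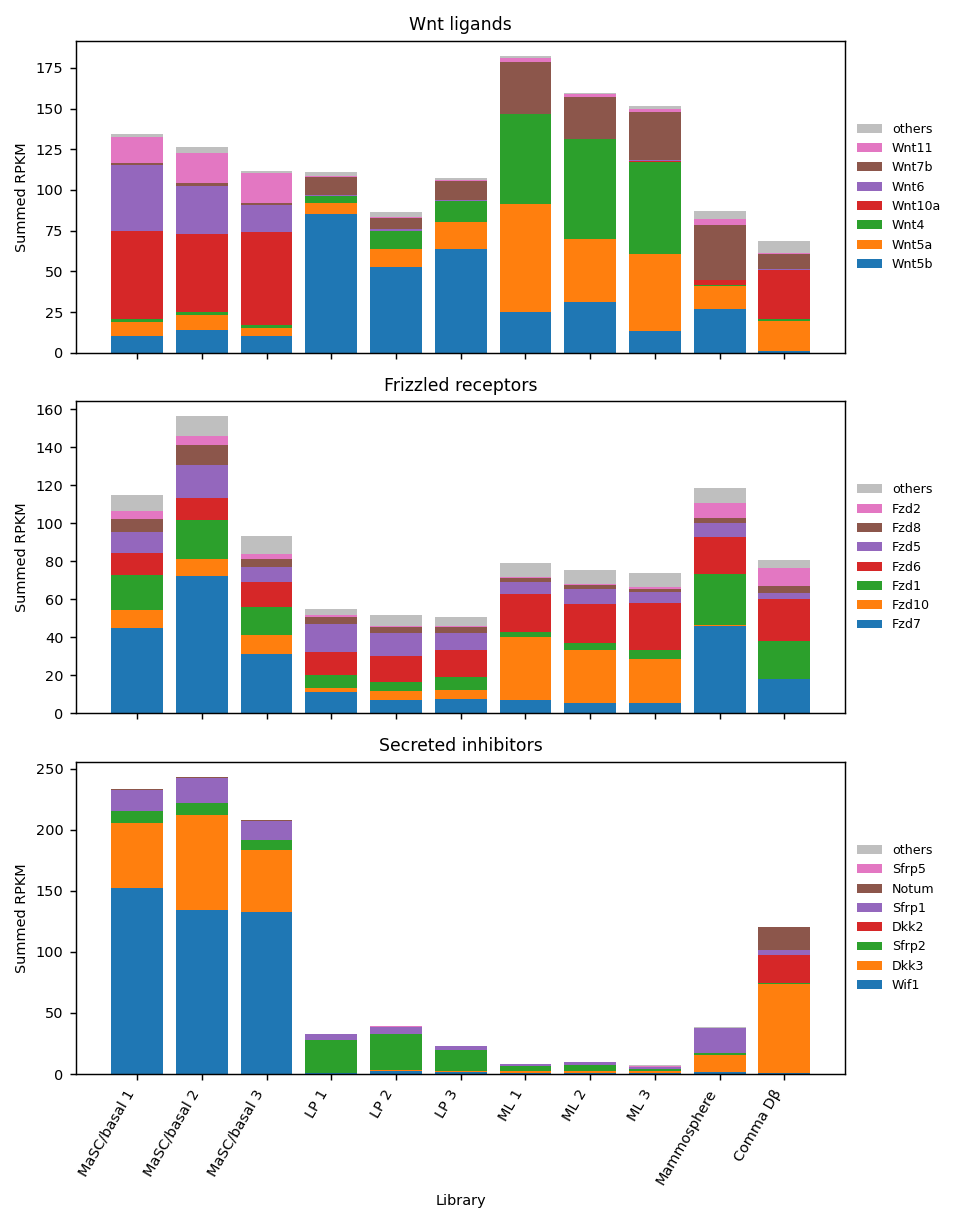
Summed RPKM of 15 ligands, 10 Frizzled receptors and 8 secreted inhibitors in each of the 11 libraries, stacked by gene with the 7 largest genes coloured and the others in grey. Ligand sums stay between 68.8 and 182 RPKM while their composition changes between populations, and the inhibitor sum falls from 208 to 243 RPKM in MaSC/basal to 7.15 to 10.2 RPKM in ML.

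Upstream sequence was read for members from a RefSeq promoter table on GRCm38.p6, which held 45 promoters of 35 members. The core letters bound by TCF/LEF factors, CTTTGAT or CTTTGAA on either strand, were sought from 250 bases before the start to 50 after it. A match was found in 2 of the 45 (4.44%), against 2842 of 32851 promoters (8.65%) in the whole table. Both matches lay before the start, in the ligand promoters of *Wnt5b* and *Wnt11*. A match here describes letters only. The 4 promoters shown are those of the LP ligand *Wnt5b* and the MaSC/basal ligand *Wnt11*, which carry the matches, and of the MaSC/basal ligand *Wnt6* and the ML ligand *Wnt4*, whose levels differed between all 3 populations. Capitals mark the TCF/LEF letters, and each run ends at the last base before the start. They are chr6:119449387-119449636 (minus strand, 1 of 3 *Wnt5b* starts, match beginning 71 bases before the start), chr7:98834862-98835111 (plus strand, 1 of 2 *Wnt11* starts, match beginning 51 bases before it), chr1:74771642-74771891 (plus strand) and chr4:137277385-137277634 (plus strand). The bases of the *Wnt4* promoter are 85.2% G or C, those of *Wnt6* 79.6%, *Wnt11* 70.8% and *Wnt5b* 55.6%.
Wnt5b: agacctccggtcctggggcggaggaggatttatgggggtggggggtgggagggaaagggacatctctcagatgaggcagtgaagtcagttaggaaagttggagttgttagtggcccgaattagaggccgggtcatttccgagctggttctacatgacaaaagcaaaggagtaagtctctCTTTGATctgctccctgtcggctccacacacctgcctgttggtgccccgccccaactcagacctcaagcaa
Wnt11: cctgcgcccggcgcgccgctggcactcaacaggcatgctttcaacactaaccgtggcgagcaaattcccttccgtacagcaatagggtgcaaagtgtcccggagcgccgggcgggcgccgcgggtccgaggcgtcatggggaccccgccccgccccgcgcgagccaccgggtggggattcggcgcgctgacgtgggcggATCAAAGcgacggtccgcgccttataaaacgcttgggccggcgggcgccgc
Wnt6: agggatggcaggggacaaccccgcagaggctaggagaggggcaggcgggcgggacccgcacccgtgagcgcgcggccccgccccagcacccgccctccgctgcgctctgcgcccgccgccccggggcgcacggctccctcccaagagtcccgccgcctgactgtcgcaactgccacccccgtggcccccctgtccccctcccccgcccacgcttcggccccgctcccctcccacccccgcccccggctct
Wnt4: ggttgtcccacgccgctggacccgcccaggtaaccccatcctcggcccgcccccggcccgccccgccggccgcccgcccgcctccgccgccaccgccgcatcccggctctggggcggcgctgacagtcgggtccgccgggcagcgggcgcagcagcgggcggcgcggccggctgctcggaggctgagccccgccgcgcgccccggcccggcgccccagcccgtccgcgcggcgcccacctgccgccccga

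Both genes for ligand release were highest in MaSC/basal and lowest in LP. *Wls*, which carries Wnt proteins to the cell surface, was at 235, 262 and 252 CPM in MaSC/basal, at 95.1, 103 and 114 CPM in LP and at 167, 152 and 194 CPM in ML. *Porcn*, the enzyme that attaches the lipid, was at 29.8, 23.7 and 25.0 CPM, at 9.83, 9.43 and 10.1 CPM and at 16.5, 14.3 and 15.6 CPM in the same order. Neither gene showed any overlap between populations, and all 6 differences passed the threshold. MaSC/basal exceeded LP by 1.26 (*Wls*) and 1.42 (*Porcn*) on the log2 scale, and ML exceeded LP by 0.72 and 0.66.

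Among the receptors, 7 of 12 were higher in MaSC/basal than in LP and none was lower. Against ML, 7 were higher and 3 lower. Of all genes, 29.4% were higher and 28.0% lower in MaSC/basal than in LP, and 28.9% and 29.7% than in ML. *Fzd7*, a Frizzled often linked to basal mammary cells, was at 215, 347 and 150 CPM in MaSC/basal, at 53.2, 34.9 and 35.3 CPM in LP and at 35.0, 26.9 and 26.2 CPM in ML. It spread widely among the MaSC/basal libraries, yet the lowest of these lay above every luminal library, with log2 fold changes of 2.53 (adjusted p = 6.29e-05) and 3.01 (adjusted p = 1.93e-05) against LP and ML. *Fzd1* was at 82.2, 90.5 and 64.8 CPM, at 30.9, 22.2 and 29.2 CPM and at 10.9, 14.4 and 19.9 CPM. It stepped down from MaSC/basal to LP to ML without overlap, although the step from LP to ML (0.87, adjusted p = 0.0176) was lost without LP replicate 1 (adjusted p = 0.053) or ML replicate 1 (0.054).

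*Fzd2* was at 15.5, 18.7 and 9.00 CPM in MaSC/basal, at 2.85, 1.93 and 2.19 CPM in LP and at 3.17, 2.97 and 3.28 CPM in ML. *Fzd3*, known from planar polarity and axon tracts, was at 72.5, 82.7 and 84.2 CPM, at 18.8, 29.0 and 17.8 CPM and at 14.2, 22.0 and 16.6 CPM. For both genes the luminal libraries all lay under the MaSC/basal ones, and LP and ML did not differ past the threshold. *Fzd8* was at 22.1, 35.1 and 13.2 CPM, at 12.4, 9.99 and 9.71 CPM and at 6.98, 7.57 and 5.37 CPM, and its step from LP to ML (0.68, adjusted p = 0.125) passed without MaSC/basal replicate 3 (0.0452). *Fzd9* was at 2.71, 3.19 and 2.15 CPM in MaSC/basal, at 0.247, 0.561 and 0.534 CPM in LP and at 0.170, 0.372 and 0.228 CPM in ML, with a log2 fold change of 3.29 ± 0.41 against ML (adjusted p = 6.52e-05, edgeR).

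Another group of Frizzleds rose in ML cells. *Fzd10* (Entrez 93897) was at 28.2, 27.6 and 30.7 CPM in MaSC/basal, at 6.41, 13.1 and 14.8 CPM in LP and at 98.5, 83.7 and 69.4 CPM in ML. It was thus lowest in LP, with no overlap between any populations, and the fold change of LP against ML was -2.88 ± 0.28 on the log2 scale (adjusted p = 0.000701, edgeR). MaSC/basal was 1.33 above LP (adjusted p = 0.00178) and 1.54 below ML (adjusted p = 0.000611) for this gene.

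*Fzd4*, a receptor also for the non-Wnt ligand norrin, was at 5.59, 8.23 and 7.98 CPM in MaSC/basal, at 6.77, 11.6 and 10.7 CPM in LP and at 23.0, 19.2 and 22.8 CPM in ML. *Fzd6*, a planar polarity receptor, was at 46.3 to 53.2 CPM, 51.0 to 58.5 CPM and 84.2 to 102 CPM. Both were higher in ML than in either other population. Neither differed past the threshold between MaSC/basal and LP, where the libraries overlapped for both genes. Without LP replicate 1, *Fzd4* was called lower in MaSC/basal than in LP (-0.64, adjusted p = 0.0311, against -0.42 and 0.152). *Fzd5* was at 79.7, 119 and 56.3 CPM, at 101, 86.1 and 64.5 CPM and at 40.3, 51.4 and 42.3 CPM, lowest in ML. Its difference between LP and ML (0.91 on the log2 scale, adjusted p = 0.0251) was lost without LP replicate 1 (adjusted p = 0.0772), LP replicate 2 (0.0587), ML replicate 1 (0.0837) or ML replicate 3 (0.0702), and 17.83% of its exon bases are overlapped by a gene on the other strand.

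As RPKM, the 10 Frizzleds of MaSC/basal cells summed to 122 ± 32.0, those of LP cells to 52.4 ± 2.3 and those of ML cells to 76.3 ± 2.7 (SD, n = 3). *Fzd7* made up 39.5 ± 6.4% of the sum in MaSC/basal. In LP, *Fzd6* with 25.4 ± 2.8% and *Fzd5* with 23.0 ± 4.1% were within the spread of the libraries of each other. In ML, *Fzd10* made up 36.7 ± 5.1% and *Fzd6* 28.9 ± 3.9%, with *Fzd10* first in ML libraries 1 and 2 and *Fzd6* first in library 3.

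The Lrp co-receptors changed little. *Lrp6* was at 161 to 215 CPM over all 9 sorted libraries and passed no test, with log2 fold changes of 0.02 ± 0.13, 0.12 ± 0.13 and 0.10 ± 0.13 in the 3 comparisons (edgeR). *Lrp5* was at 342, 341 and 255 CPM in MaSC/basal, at 305, 223 and 241 CPM in LP and at 424, 370 and 394 CPM in ML. MaSC/basal and LP overlapped, and ML exceeded LP by 0.63 on the log2 scale (adjusted p = 0.0207), a call lost without LP replicate 2 (adjusted p = 0.0855), LP replicate 3 (0.0688) or ML replicate 1 (0.0729). As RPKM, *Lrp5* supplied 68.3 to 82.7% of the co-receptor sum in every sorted library.

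**Figure D3:**
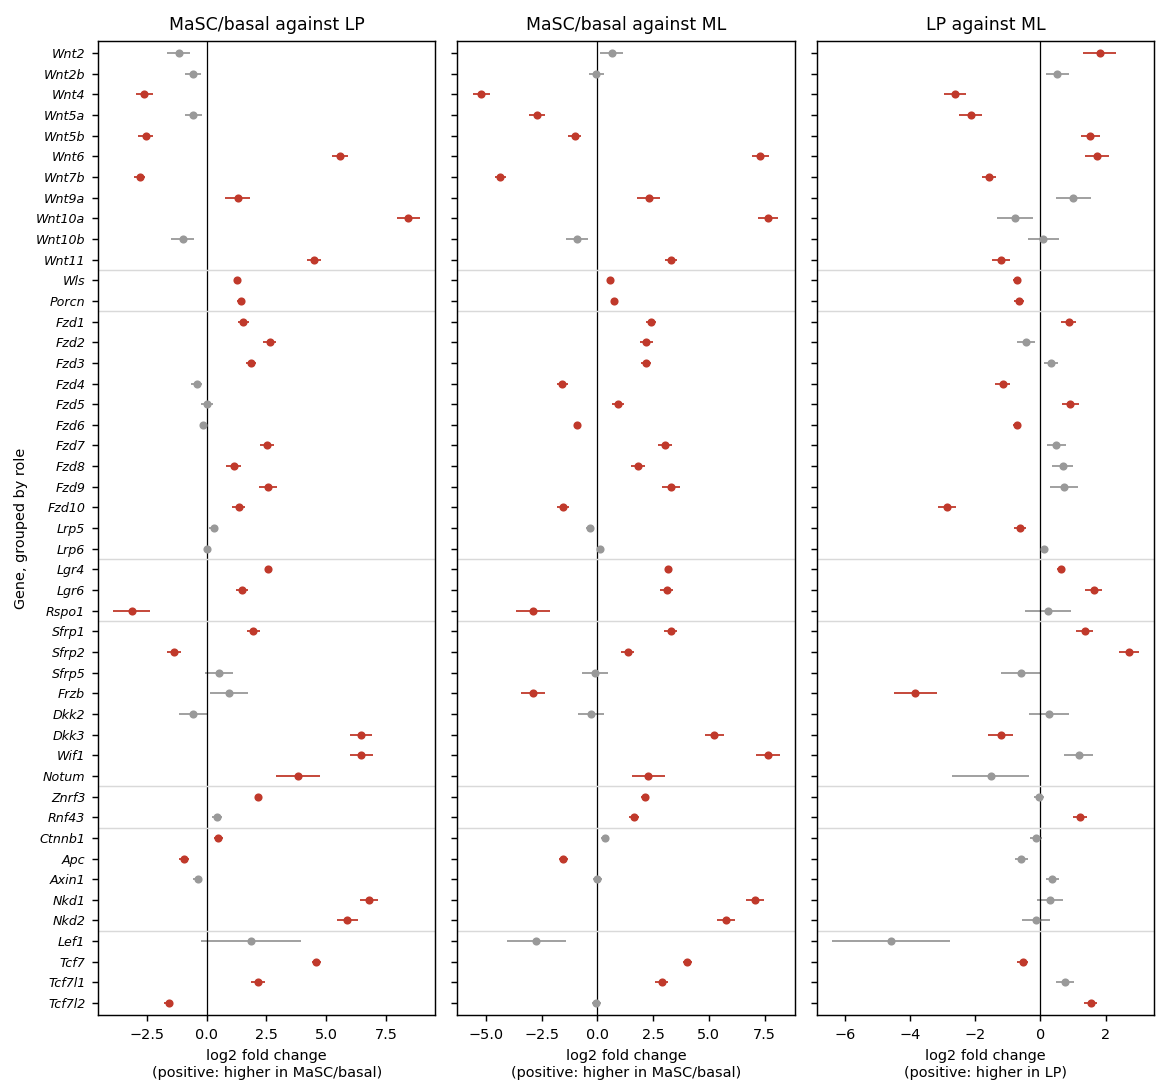
Log2 fold changes with SE bars of the 47 members tested, grouped by role, in the 3 comparisons of sorted populations (3 libraries each, edgeR). Red points passed an adjusted p under 0.05 and grey points did not; in the first panel most receptors, inhibitors and intracellular members lie right of 0, and in the third panel the points are divided between both sides.

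The R-spondin receptors followed MaSC/basal cells and the ligand did not. *Lgr4*, which binds R-spondins and so keeps Frizzleds on the membrane, was at 260, 223 and 249 CPM in MaSC/basal, at 40.9, 42.7 and 39.9 CPM in LP and at 25.0, 28.2 and 27.1 CPM in ML. *Lgr6*, a relative marking progenitor cells of skin, was at 280, 293 and 257 CPM, at 119, 93.8 and 85.6 CPM and at 27.4, 47.3 and 21.0 CPM. Both fell in steps without overlap. *Lgr4* was 2.57 and 3.19 higher in MaSC/basal than in LP and ML on the log2 scale, *Lgr6* was 1.48 and 3.11 higher, and *Lgr6* was 1.63 ± 0.27 higher in LP than in ML (adjusted p = 0.00214, edgeR).

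*Rspo1*, the secreted R-spondin, was at 2.05, 1.51 and 2.45 CPM in MaSC/basal, at 34.4, 5.07 and 13.8 CPM in LP and at 23.5, 17.9 and 3.55 CPM in ML. Its luminal libraries spread widely within both LP and ML, and all lay above MaSC/basal. The log2 fold change of MaSC/basal was -3.14 ± 0.77 against LP (adjusted p = 0.00554), -2.23 without LP replicate 1 (adjusted p = 0.0218), and -2.91 against ML (adjusted p = 0.00763, edgeR). Since no luminal library overlapped MaSC/basal, *Rspo1* was also higher in luminal cells within both batches that held MaSC/basal, which gives no separate support. Summed fibroblast markers were lowest (310 CPM) in LP replicate 1, the library with most *Rspo1*. The part of fibroblast RNA in the *Rspo1* levels was not tested. *Rspo3* did not pass the filter, with 0 to 5 reads in the sorted libraries.

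The secreted inhibitors gave some of the widest differences. Of 8 tested, 4 were higher in MaSC/basal than in LP and 1 lower, against 29.4% and 28.0% of all genes. Compared with ML, 5 were higher in MaSC/basal and 1 lower, against 28.9% and 29.7%. *Wif1* (Entrez 24117), which binds Wnt proteins outside the cell, was at 341, 300 and 297 CPM in MaSC/basal, at 1.20, 5.70 and 3.36 CPM in LP and at 1.13, 1.41 and 2.32 CPM in ML. The nearest luminal library stood far under the lowest MaSC/basal library. Its log2 fold change was 6.47 ± 0.50 against LP (adjusted p = 3.37e-06), or 7.13 without LP replicate 2, and 7.64 ± 0.53 against ML (adjusted p = 1.51e-06, edgeR). LP against ML (1.17, adjusted p = 0.0777) passed without LP replicate 1 (1.59, adjusted p = 0.008) and with DESeq2 (0.0333).

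*Dkk3*, a divergent member of the Dickkopf family whose action on Wnt signalling is debated, was at 178, 263 and 170 CPM in MaSC/basal, at 0.951, 3.52 and 2.24 CPM in LP and at 5.62, 6.49 and 3.78 CPM in ML. MaSC/basal was higher by 6.46 ± 0.45 than LP (adjusted p = 1.73e-06) and by 5.24 ± 0.42 than ML (adjusted p = 3.41e-06) on the log2 scale (edgeR). ML lay above LP without overlap by 1.22 (adjusted p = 0.0382), but without MaSC/basal replicate 1, LP replicate 1, LP replicate 3, ML replicate 1 or ML replicate 2 this call was lost (adjusted p of 0.0548, 0.0801, 0.0857, 0.0909 and 0.0959).

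*Sfrp1*, which binds Wnts through a Frizzled-like domain, was at 76.0, 89.3 and 66.6 CPM in MaSC/basal, at 21.5, 25.0 and 13.7 CPM in LP and at 6.98, 10.7 and 5.69 CPM in ML, stepping down without overlap. Its relative *Sfrp2* followed another order, with 20.7, 19.7 and 17.2 CPM in MaSC/basal, 53.6, 58.8 and 34.4 CPM in LP and 8.59, 9.35 and 4.14 CPM in ML. Every LP library exceeded every MaSC/basal library, and these exceeded every ML library. LP was above ML by 2.72 ± 0.31 on the log2 scale (adjusted p = 0.0008, edgeR), and MaSC/basal was 1.35 below LP and 1.37 above ML. A gene on the other strand overlaps 17.32% of the *Sfrp2* exon bases.

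The other inhibitors were under 2 CPM in every sorted library. *Sfrp5* was at 0.311 to 1.91 CPM, with its highest value in ML replicate 3. Its difference between MaSC/basal and ML was -0.10 on the log2 scale (adjusted p = 0.897), and without ML replicate 3 it turned to 1.01 and was called (adjusted p = 0.0311). *Dkk2*, a Dickkopf that binds Lrp co-receptors, was at 0.153, 0.378 and 0.339 CPM in MaSC/basal, at 0.352, 0.262 and 0.800 CPM in LP and at 0.254, 0.199 and 0.774 CPM in ML, and was not called in any comparison. *Frzb* was at 0.820, 0.465 and 0.592 CPM in ML, at 0.0509, 0.0797 and 0.113 CPM in MaSC/basal and at 0, 0.0374 and 0.107 CPM in LP, and was called higher in ML than in both. *Notum*, an enzyme that removes the lipid from Wnts, was at 0.424, 0.339 and 1.04 CPM in MaSC/basal, at 0.0352, 0.0374 and 0.0534 CPM in LP and at 0.0283, 0.0531 and 0.410 CPM in ML. MaSC/basal and ML overlapped for *Notum*, and the call between them (log2 fold change 2.29, adjusted p = 0.0235) was lost without ML replicate 1 (adjusted p = 0.0768) or ML replicate 2 (0.108), and rose to 3.67 without ML replicate 3. *Notum* and *Frzb* no longer passed the filter when the 9 sorted libraries were taken alone, *Notum* also without MaSC/basal replicate 3, and *Frzb* also without ML replicate 1 or 3. Of the *Notum* exon bases, 38.3% are overlapped by genes on the other strand.

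As RPKM, the 8 inhibitors of MaSC/basal cells summed to 228 ± 18.2, those of LP cells to 31.7 ± 8.1 and those of ML cells to 8.63 ± 1.5 (SD, n = 3), with no overlap between populations. *Wif1* made up 61.3 ± 5.5% of the MaSC/basal sum and *Dkk3* 26.4 ± 5.1%, whereas *Sfrp2* made up 77.1 ± 3.8% of the LP sum and 41.6 ± 11.2% of the ML sum. On this scale the inhibitor RNA of MaSC/basal cells exceeded their ligand RNA in every library. In both LP and ML the inhibitor RNA was below the ligand RNA in every library.

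The ubiquitin ligases *Znrf3* and *Rnf43*, which clear Frizzleds from the membrane and are themselves known targets of the pathway, were both lower in ML than in MaSC/basal cells. *Znrf3* was at 61.4, 54.6 and 47.2 CPM in MaSC/basal, at 13.8, 12.0 and 10.8 CPM in LP and at 12.7, 12.7 and 12.1 CPM in ML, and was 2.16 and 2.12 higher in MaSC/basal on the log2 scale, while LP and ML differed by 0.04. *Rnf43* was at 59.8, 57.2 and 48.3 CPM, at 52.4, 27.2 and 42.5 CPM and at 16.6, 15.9 and 20.0 CPM. For *Rnf43* the MaSC/basal and LP libraries overlapped and ML was lowest. Its difference between MaSC/basal and LP (0.44, adjusted p = 0.111) passed the threshold, among the alternatives run, only with the library batch as a block (0.61, adjusted p = 0.0289), without LP replicate 1 or without TMM scaling.

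Of the intracellular members, the 2 Naked genes separated the populations most. *Nkd1* (Entrez 93960), an inhibitor that binds Dishevelled, was at 87.3, 117 and 62.4 CPM in MaSC/basal, at 0.458, 1.14 and 0.694 CPM in LP and at 0.537, 0.611 and 0.911 CPM in ML. *Nkd2*, its relative, was at 61.0, 76.8 and 52.4 CPM, at 0.705, 1.48 and 0.854 CPM and at 0.876, 0.744 and 2.19 CPM. Every MaSC/basal library stood above every luminal library for both. The log2 fold changes of *Nkd1* were 6.78 ± 0.38 against LP (adjusted p = 5.69e-07) and 7.07 ± 0.39 against ML (adjusted p = 3.89e-07), and those of *Nkd2* were 5.89 ± 0.42 (adjusted p = 2.21e-06) and 5.77 ± 0.42 (adjusted p = 1.98e-06, edgeR).

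The core of the pathway moved less. *Ctnnb1*, which encodes β-catenin, was at 1227, 1290 and 1156 CPM in MaSC/basal, at 844, 1058 and 705 CPM in LP and at 922, 1077 and 884 CPM in ML. MaSC/basal was above LP by 0.49 on the log2 scale (adjusted p = 0.0413, edgeR). The call was lost with the library batch as a block (0.39, adjusted p = 0.0637) and with no filter (0.0550). It was also lost without any of MaSC/basal replicates 1, 2 and 3, LP replicates 1 and 3 and ML replicate 1 (adjusted p from 0.055 to 0.158). *Apc*, a scaffold of the destruction complex, ran the other way, at 137, 126 and 199 CPM in MaSC/basal, at 248, 343 and 295 CPM in LP and at 521, 405 and 405 CPM in ML. No *Apc* libraries overlapped between populations, and MaSC/basal was 0.94 below LP and 1.53 below ML on the log2 scale (adjusted p = 0.00329 and 0.000147), while LP against ML was not called (-0.59, adjusted p = 0.0553) but passed without TMM scaling (-0.76, adjusted p = 0.0173), with limma voom (0.0457), with DESeq2 (0.0391) or without MaSC/basal replicate 3 (0.0301). *Axin1* was at 100 to 184 CPM and was not called in any comparison, though LP was called higher than MaSC/basal (by 0.53, adjusted p = 0.00794) and than ML (by 0.37, adjusted p = 0.044) with the library batch as a block, and than ML without ML replicate 2 (by 0.58, adjusted p = 0.0322).

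The TCF/LEF factors differed in which population carried them. *Tcf7* (Entrez 21414) was at 157, 134 and 133 CPM in MaSC/basal, at 4.69, 6.99 and 5.92 CPM in LP and at 7.77, 10.0 and 7.88 CPM in ML. It was higher in MaSC/basal by 4.58 ± 0.19 than in LP (adjusted p = 1.53e-07) and by 4.04 ± 0.19 than in ML (adjusted p = 1.98e-07) on the log2 scale (edgeR). The difference of 0.54 between LP and ML (adjusted p = 0.0386) was lost with limma voom and without any of 7 of the 9 sorted libraries, those other than MaSC/basal replicate 3 and LP replicate 2 (adjusted p from 0.0502 to 0.14). *Tcf7l1*, often a repressor of Wnt targets, was at 62.7, 82.7 and 60.3 CPM, at 18.4, 13.8 and 14.6 CPM and at 7.49, 13.8 and 6.33 CPM, with MaSC/basal above all luminal libraries. The difference between LP and ML passed, among the alternatives run, only with the batch as a block (0.81, adjusted p = 0.0429, against 0.74 and 0.0671), with DESeq2 or without ML replicate 2.

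*Tcf7l2*, by contrast, was highest in LP cells, at 150, 84.3 and 146 CPM there, at 38.7, 42.9 and 44.7 CPM in MaSC/basal and at 42.6, 44.5 and 43.7 CPM in ML. MaSC/basal and ML overlapped and differed by 0.05 on the log2 scale, with LP 1.54 ± 0.20 above ML (adjusted p = 0.000998, edgeR) and 1.59 above MaSC/basal (adjusted p = 8.58e-05). *Lef1* RNA was near the limit of detection in 8 of the 9 sorted libraries, at 0 to 0.188 CPM, and at 2.69 CPM in ML replicate 3. No *Lef1* comparison passed the threshold (adjusted p from 0.0795 to 0.476), and without ML replicate 3 the gene did not pass the filter. With that library included, other settings gave calls. *Lef1* was higher in ML than in LP with DESeq2 (adjusted p = 0.0199) and without ML replicate 2 (0.0306), and higher in ML than in MaSC/basal without ML replicate 1 (0.0449) or 2 (0.0337). With the library batch as a block, *Lef1* was called higher in MaSC/basal (4.91, adjusted p = 0.000935) and in ML (4.12, adjusted p = 0.00261) than in LP, and the sign of its difference between MaSC/basal and ML turned. A gene on the other strand overlaps 34.46% of its exon bases. ML replicate 3 also held the highest values of *Wnt3*, *Sfrp5* and *Wnt10b* among the sorted libraries and the most *Krt5* of the luminal ones. The MaSC/basal libraries held at most 0.188 CPM of *Lef1* and 0.0565 CPM of *Wnt3*. The part of basal cell RNA in the values of ML replicate 3 was not tested.

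Of a further list of 56 Wnt pathway genes outside the set, 48 passed the filter. This list, like the set, was chosen with earlier results of these data known, so its shares are not independent support. Of these, 28 (58.3%, against 29.4% of all genes) were higher in MaSC/basal than in LP and 6 (12.5%, against 28.0%) lower. Against ML, 32 (66.7%, against 28.9%) were higher in MaSC/basal and 6 (12.5%, against 29.7%) lower. In the third comparison 9 (18.8%) were higher in LP, against 14.3% of all genes, and 9 (18.8%) in ML, against 17.5%, shares near those of all genes. Higher in MaSC/basal than in LP by the largest folds were *Sostdc1*, a secreted inhibitor of both BMP and Wnt signals (mean 34.7 against 0.462 CPM), *Dact3*, a Dishevelled-binding antagonist (21.2 against 0.595 CPM), and *Lgr5*, the third R-spondin receptor (81.1 against 2.58 CPM). The same 3 genes led the comparison with ML, with means of 0.898, 0.418 and 2.88 CPM there. *Celsr2*, *Dvl1* and *Csnk1e* were the largest of those higher in LP, by 1.36, 1.19 and 0.91 on the log2 scale. Those higher in ML than in MaSC/basal by most were *Csnk1e*, *Dvl1* and *Tle5* (1.04, 0.99 and 0.71). Between the luminal populations, *Ror1*, *Sfrp4* and *Prickle2* were higher in LP (by 2.01, 1.63 and 1.60) and *Celsr1*, *Ror2* and *Sdc1* in ML (by 2.82, 1.65 and 0.95). The number of these genes called between LP and ML fell from 18 to 10 without ML replicate 3 and to 11 without ML replicate 1. Calls over all genes fell as well, from 2204 higher in LP and 2695 higher in ML (of 15422 tested). They were 1497 and 1863 (of 15289) without ML replicate 3 and 1334 and 1749 (of 15326) without ML replicate 1.

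The cultured cells were each 1 library, so no test was made. A member was counted as moved when its log2 CPM (prior count of 2) lay over 1 beyond the nearest of the 3 MaSC/basal libraries. In mammosphere cells 16 of 47 members (34.0%) lay below MaSC/basal by this rule, against 15.9% of all 15422 genes, and 4 (8.51%) lay above, against 15.4%. In Comma Dβ, 21 (44.7%) lay below, against 21.4% of all genes, and 5 (10.6%) lay above, against 11.9%. The median difference from MaSC/basal over the members was -0.43 in mammosphere cells and -0.96 in Comma Dβ, and over all genes it was -0.01 and 0.02. Basal marker sums were lower in both cultures than in MaSC/basal, at 3576 and 1541 CPM against at least 16966 CPM, and their part in the members' levels was not tested.

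Of the MaSC/basal ligands, *Wnt6* was at 0.338 CPM in mammosphere and 0.816 CPM in Comma Dβ, below all 3 MaSC/basal libraries by more than 5 log2 units in both. *Wnt10a* was at 5.99 CPM in mammosphere cells and at 59.0 CPM in Comma Dβ, which was within 1 log2 unit of the MaSC/basal libraries. The neighbouring genes were therefore both low in mammospheres and apart in Comma Dβ. *Wnt11* was at 9.60 CPM and 0.612 CPM. As shares of ligand RPKM, *Wnt10a* made up 3.5% in mammosphere and 43.7% in Comma Dβ.

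*Wnt7b* was the one ligand that lay above MaSC/basal by this rule in both, at 149 CPM in mammosphere cells and 42.0 CPM in Comma Dβ against 4.88 to 7.81 CPM in MaSC/basal. The mammosphere value was also above every luminal library, of which the highest was ML replicate 1 at 141 CPM, and *Wnt7b* held 38.7% of the ligand RPKM there. *Wnt9a*, at 22.9 CPM, was over 1 log2 unit above MaSC/basal in Comma Dβ and, at 12.8 CPM, less than that above it in mammospheres. *Wnt5b* was at 63.1 CPM in mammosphere cells and at 2.31 CPM in Comma Dβ, where it was below every sorted library. *Wnt5a* was at 62.0 and 81.3 CPM, and *Wnt4*, the ML ligand, was at 2.64 and 4.83 CPM, under every sorted library in both. *Wnt2* (0.473 and 0 CPM), *Wnt2b* (1.17 and 1.53 CPM) and *Wnt10b* (0.225 and 0.476 CPM) stayed low. Ligands that did not pass the filter showed their reads in culture: *Wnt7a* had 123 reads in mammosphere cells (2.77 CPM), *Wnt3a* had 8 reads in Comma Dβ, and *Rspo3* had 21 and 70 reads in the 2 cultures.

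**Figure D4:**
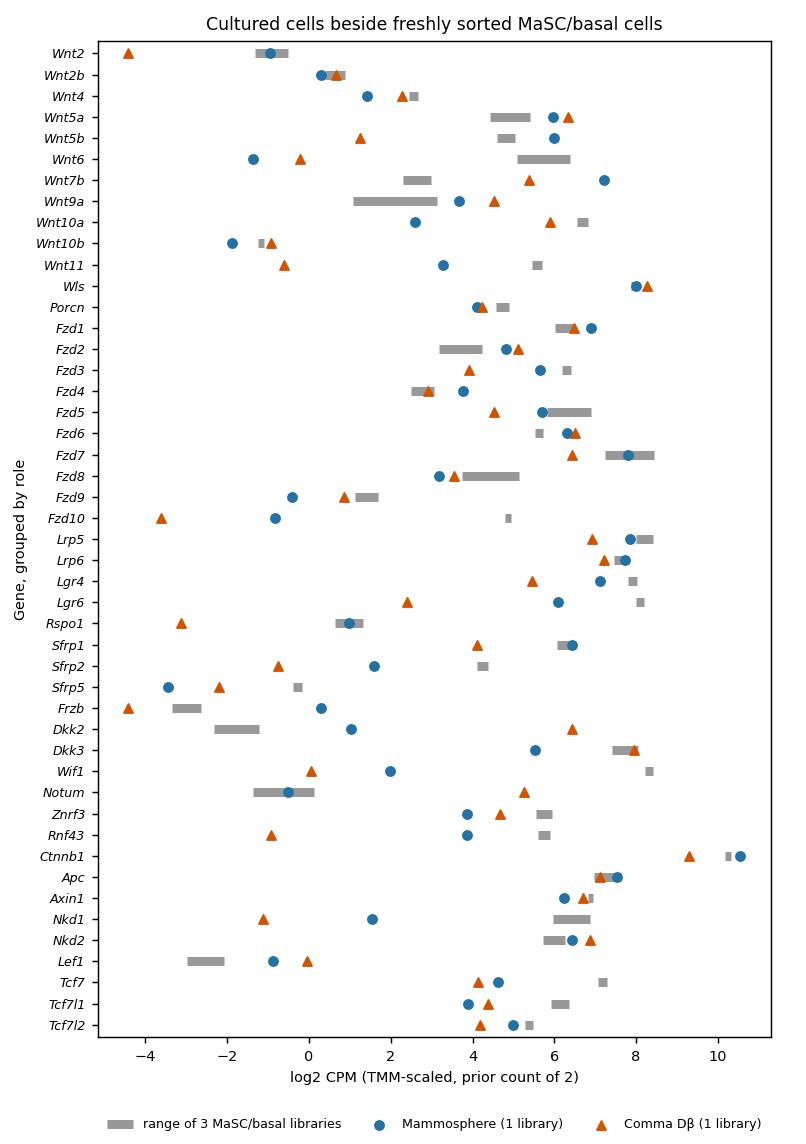
Log2 CPM (prior count of 2) of the 47 members tested, grouped by role, in mammosphere cells (circles) and Comma Dβ (triangles), with grey bars for the range of the 3 MaSC/basal libraries. Both symbols lie left of the bars for *Wnt6*, *Wif1*, *Nkd1*, *Tcf7* and *Fzd10* and right of them for *Wnt7b*, and the triangles of *Dkk2* and *Notum* lie far right of theirs.

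Receptors were kept in part. *Fzd7* was at 222 CPM in mammosphere cells, inside the MaSC/basal range, and at 86.6 CPM in Comma Dβ. *Fzd1* (120 and 89.0 CPM) and *Fzd2* (28.1 and 34.6 CPM) were at or above MaSC/basal in both, and *Fzd2* was higher in each than in any sorted library. *Fzd10* was at 0.518 CPM in mammosphere cells and at a single read, 0.034 CPM, in Comma Dβ, under every sorted library. *Fzd3* (50.2 and 15.0 CPM), *Fzd5* (51.6 and 23.0 CPM) and *Lrp5* (229 and 122 CPM) lay over 1 log2 unit below MaSC/basal in Comma Dβ and less than that in mammosphere cells, a difference between the cultures that was not tested. *Fzd4* was at 13.6 and 7.52 CPM, *Fzd8* at 8.94 and 11.7 CPM and *Fzd9* at 0.698 and 1.77 CPM. *Lgr4* was at 139 and 44.0 CPM and *Lgr6* at 68.0 and 5.20 CPM, and *Rspo1* was at 1.91 CPM in mammosphere cells and at 0.068 CPM in Comma Dβ.

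The inhibitors changed identity in culture. *Wif1* was at 3.88 CPM in mammosphere cells and 0.986 CPM in Comma Dβ, against at least 297 CPM in MaSC/basal. *Dkk3* was at 46.1 CPM in mammosphere cells and, at 247 CPM, inside the MaSC/basal range in Comma Dβ, and *Sfrp1* was inside that range in mammosphere cells (87.0 CPM) and below it in Comma Dβ (17.2 CPM). *Sfrp2* (2.95 and 0.544 CPM) and *Sfrp5* (0.0451 and 0.170 CPM) were under every sorted library in both. *Dkk2* was at 86.3 CPM in Comma Dβ, where no sorted library exceeded 0.800 CPM, and at 2.01 CPM in mammosphere cells, and *Notum* was at 38.4 CPM in Comma Dβ against at most 1.04 CPM in sorted cells. *Frzb* was at 1.17 CPM in mammosphere cells and had no read in Comma Dβ. As RPKM, the 8 inhibitors summed to 38.1 in mammosphere cells, 52.2% of it *Sfrp1*, and to 121 in Comma Dβ, of which *Dkk3* made up 61.0%, *Dkk2* 19.3% and *Notum* 15.8%. Fibroblast markers were also highest in these 2 libraries, with *Col1a1* at 837 and 808 CPM against 29.1 to 234 CPM in sorted cells. The part of that difference in the *Dkk2* and *Notum* levels was not tested.

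Downstream, *Nkd1* and *Nkd2* parted in culture. *Nkd1* was at 2.86 CPM in mammosphere cells and 0.408 CPM in Comma Dβ, whereas *Nkd2* was at 86.5 and 118 CPM, above every sorted library in both. *Znrf3* was at 14.6 and 25.5 CPM and *Rnf43* at 14.5 and 0.476 CPM, with *Rnf43* under every sorted library in both. *Tcf7* (24.8 and 17.6 CPM) and *Tcf7l1* (14.8 and 20.6 CPM) were over 1 log2 unit below MaSC/basal in both, and *Tcf7l2* was at 31.9 and 18.3 CPM. *Lef1* was at 0.496 and 0.918 CPM, above MaSC/basal and under ML replicate 3. *Ctnnb1* was at 1495 CPM in mammosphere cells, above every sorted library, and at 630 CPM in Comma Dβ, under every sorted library. *Wls* (256 and 307 CPM), *Porcn* (17.1 and 18.8 CPM), *Apc* (184 and 138 CPM), *Axin1* (74.8 and 104 CPM) and *Lrp6* (214 and 149 CPM) stayed within 1 log2 unit of the nearest MaSC/basal library in both.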

How the data were processed

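RNA-seq was analysed for 3 MaSC/basal, 3 LP, 3 ML, 1 mammosphere and 1 Comma Dβ libraries. According to the methods and the submitters' processing notes (CASAVA 1.8.0, featureCounts, edgeR 3.6.2, limma 3.20.5), Rsubread was used for alignment of the single-end reads (build mm10) and featureCounts for counting per Entrez gene, and the authors deposited 1 table of raw counts per library, without normalization or filtering. How reads shared by several genes were assigned, and whether strand was used, is not given in the sources used here. The deposited tables also hold 1 exon length per gene, which was used for RPKM. Overlap with exons of other genes was counted in the GENCODE annotation of GRCm38, since an unstranded library cannot separate them. The Wnt genes, the further pathway genes and the marker lists were chosen with earlier results of these data known.

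Genes over 0.5 CPM in at least 3 libraries (15422) were retained. All 11 libraries entered 1 quasi-likelihood fit of edgeR 4.0.16 (R 4.3.3), with TMM factors and 5 sample types as groups, and a member was called at a Benjamini-Hochberg adjusted p under 0.05. SE is the log2 fold change divided by the square root of F. The p-values measure the spread between the 3 samples of a population. Library totals were 19958838 to 75795034 reads, and a count of 0 allows up to 3 reads (counting error only). Cultures, with 1 library each, were given no test. Full values in each library are given for members called with a log2 fold change over 1, or over 1 beyond MaSC/basal in a culture, at a mean of 1 CPM or more in the higher type; SE and adjusted p are given for at most 10 per comparison by size, and adjusted p beside others where a call is near or lost. At most 3 further genes per direction are named. Replicates were compared in library batches given by the labels: deviations from the group mean of same-batch libraries correlated at a median of 0.24 (9 pairs, -0.12 to 0.53), and of other pairs at -0.10 (18 pairs). Alternatives were DESeq2 1.42.0 size factors and test, no TMM, limma 3.58.1 voom, other filters, the sorted libraries alone, the batch as a block, leaving out each sorted library and, for cultures, another prior count or limit. The fits were tested on simulated data.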

Additional observations from a re-analysis of the deposited data

How the results depend on the processing

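Of the members called, 29 of 32 (MaSC/basal against LP), 34 of 36 (MaSC/basal against ML) and 16 of 24 (LP against ML) were called under all 17 alternatives. The exceptions were Ctnnb1, Notum and Wnt9a, then Frzb and Notum, then Dkk3, Frzb, Fzd1, Fzd5, Lrp5, Tcf7, Wnt2 and Wnt6. Leaving out each sorted library gave 23 to 25 members higher in MaSC/basal and 7 to 8 higher in LP, 25 to 27 higher in MaSC/basal and 9 to 12 higher in ML, and 9 to 12 higher in LP and 9 to 14 higher in ML. Further pathway genes called ranged from 34 to 36, 33 to 37 and 10 to 20 in the same way. Without 1 MaSC/basal library, mammosphere cells had 4 to 6 members above and 16 to 17 below MaSC/basal, and Comma Dβ 5 to 7 above and 21 to 23 below. Comma Dβ members above MaSC/basal numbered 8 both without TMM and without the filter, against 5, and mammosphere members below it numbered 10 at a limit of 2 log2 units, against 16. Among members called under any setting, the fold changes that turned were, between MaSC/basal and ML, Lef1, 0.79 with the library batch as a replicate block, and Sfrp5, 0.43 with limma voom, 0.59 with the block and -0.50 to 1.01 on leaving out each sorted library (1.01, called, without ML replicate 3), and the cause was not tested. Beside the calls of Wnt9a, Ctnnb1, Axin1, Rnf43, Lef1 and Tcf7l1 given with the results, the replicate block changed no other member call, and it gave 25 and 8, 26 and 10, and 13 and 14 members by direction. Without TMM the median log2 fold change of all genes was 0.14 for MaSC/basal against LP and -0.19 for LP against ML. With 3 libraries a population and members such as Frzb, Notum and Lef1 near the filter, their differences rest on few reads.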
